A study of Mus musculus with 6 samples.

Results

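A set of 32 genes of the p53 pathway was examined in MLL-AF9 leukemia cells from mice given vehicle or FF-10501-01. The set held p53 itself, its regulators, and genes known as p53 targets in the arrest, death, repair and metabolism of damaged cells, and each gene was taken as the entry of the deposited table that carries its symbol. The 32 entries were found among 26384 entries, and 28 of the 32 were abundant enough to be tested along with 11004 entries in all.

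MLL-AF9 cells are mouse bone marrow c-Kit+ progenitors transformed by a retroviral MLL-AF9 fusion oncogene that is co-expressed with GFP, and they had been passaged through several rounds of transplantation. Leukemic C57BL/6J mice received vehicle or FF-10501-01, an inhibitor of the guanine nucleotide enzyme IMPDH, at 160 mg/kg by mouth in 2 doses on consecutive days, and GFP+ cells were sorted from the bone marrow 48 h after the first dose according to the labels. The RNA-Seq methods give a shorter interval, so the time after dosing is not certain. Each group had 3 libraries, the labels name no Trp53 allele for them, and the RNA-Seq methods call the cells mouse MLL-AF9 cells, whereas the Trp53-/- leukemia that the study also made is named as such. Both groups carry the same oncogene, marker gene and GFP gate, and no library of untransformed cells was analysed here.

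The protein p53 is a transcription factor that is held low by MDM2, a ubiquitin ligase whose own gene p53 activates, and by the related MDM4. Damage kinases and free ribosomal proteins are known to relieve this block, after which p53 raises genes that stop the cell cycle, repair DNA or kill the cell. Shortage of guanine nucleotides is one of the known triggers. The study asked whether the p53-p21 axis matters for IMPDH inhibitors in MLL-fusion leukemia. By western blot, the paper reports more p53 protein in leukemia cells of this model from mice given the inhibitor. It also reports that leukemia lacking p53 still responded to the inhibitor, and concludes that the pathway is not required for the effect on leukemia. Because p53 is regulated largely at the protein level, its mRNA and its activity are separate measurements, and only mRNA was measured here.

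Values are FPKM, which scale the fragments of a gene by its transcript length and by the library's mapped fragments, and fold changes are differences of log2(FPKM + 1), which understates changes of genes near 1 FPKM. Changes are called at a Benjamini-Hochberg adjusted p under 0.05 over all 11004 entries from limma. Depth relative to vehicle replicate 1 was estimated at 0.9881 to 1.25 from entries at or below 0.3 FPKM, and absolute read totals are unknown, so that no counting interval could be given. Among all entries tested 818 (7.43%) were higher and 821 (7.46%) lower in FF-10501-01-treated cells, and the median log2 fold change was -0.013. After rescaling to TPM the counts were 1008 higher and 667 lower, so that the share of higher calls moved from 49.9% to 60.2%.

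Marker lists of mature blood cells, other tissues and leukemia progenitors differed with the treatment for some members. The paper reports that the inhibitor drove these leukemia cells towards myeloid maturation in mice and raised Vcam1 on their surface. The lists are named for the cells in which the markers are known. Whether their RNA came from the leukemia cells or from other cells was not tested. Late neutrophil markers summed to 541.6 to 591.2 FPKM in vehicle libraries and 925.1 to 1906 in FF-10501-01 libraries, with 6 of 8 tested markers higher, and tissue macrophage markers summed to 67.05 to 77.39 and 94.53 to 114.4, with 3 of 4 tested markers higher (Vcam1, Adgre1 and Siglec1). Vcam1 made up most of that sum, at 43.4 ± 6.85 and 66.4 ± 10.8 FPKM (SD, n = 3), and the fourth, Cd163, was at 1.98 ± 1.06 and 0.429 ± 0.382 FPKM (log2 fold change of -1.02, limma adjusted p = 0.0532). C1qa, C1qb, C1qc, Mrc1, Timd4 and Marco were below the minimum mean of 1 FPKM, with Marco listed at 0 in 5 of 6 libraries. Of the 8 listed leukemia progenitor markers, 2 were higher and 3 lower, against 7.43% and 7.46% of all entries. Kit, Cd34 and Flt3 fell, with log2 fold changes of -0.27, -0.54 and -2.08. Hoxa9 and Itgam (Mac-1) rose, by 0.27 and 0.33. The sums of the listed markers, 793.7 to 806.1 and 790.3 to 821.8 FPKM, therefore hide changes in opposite directions. The paper counts more Mac-1+Gr-1+ cells among its signs of myeloid differentiation, so Itgam does not mark progenitors alone. By Cuffdiff, the paper reports no effect of the inhibitor on Hoxa9 and Meis1 RNA. Here Meis1 was not called, and Hoxa9, in a merged entry with Mir196b, was near the threshold (limma adjusted p = 0.0465). The erythroid sum was 29.56 to 40.56 and 18.97 to 23.4 FPKM, and most of it was Tfrc at 28.6 ± 6.89 and 20.05 ± 1.63 FPKM, while Slc4a1 was listed at 0. Alas2, the heme synthesis enzyme of erythroid cells, was at 5.79, 1.76 and 7.63 FPKM in vehicle and was listed at 0, 3.37 and 0 FPKM in treated cells, and did not pass (limma adjusted p = 0.0861). T and NK cell markers summed to at most 2.679 FPKM, B cell markers to at most 11.19, mostly Cd79b, with Pax5 listed at 0. The part of these cells and states in the p53 results was not tested, and in sorted bulk cells fewer cells of a type and less RNA per cell cannot be told apart.

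Most of the p53 genes were not called, and those called were all higher. Of the 28 tested, 3 were higher (Xpc, Gtse1 and Phlda3), 0 were lower and 25 were not called, which is 10.7% higher against 7.43% and 0% lower against 7.46% of all entries. At an unadjusted p under 0.05, 7 were higher (25%, against 15.1% of all entries) and 0 lower (against 17.7%). The 7 were Btg2, Cdkn1a, Ccng1, Gtse1, Phlda3, Aen and Xpc. All 3 libraries of one group lay beyond all 3 of the other for 5 members that were higher (17.9%, against 17.6% of all entries) and for 2 that were lower (7.14%, against 21.2%). Without the filter on low values none of Xpc, Gtse1 and Phlda3 passed (limma adjusted p = 0.0632, 0.0945 and 0.0805), and without a trend of variance on level Xpc and Gtse1 did not (limma adjusted p = 0.0571 and 0.0680). The log2 fold changes ran from -0.212 to 0.533 with a median of 0.0213, and 15 lay above and 13 below 0. That is 53.6% above 0, against 46.6% of all entries tested.

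**Figure D1:**
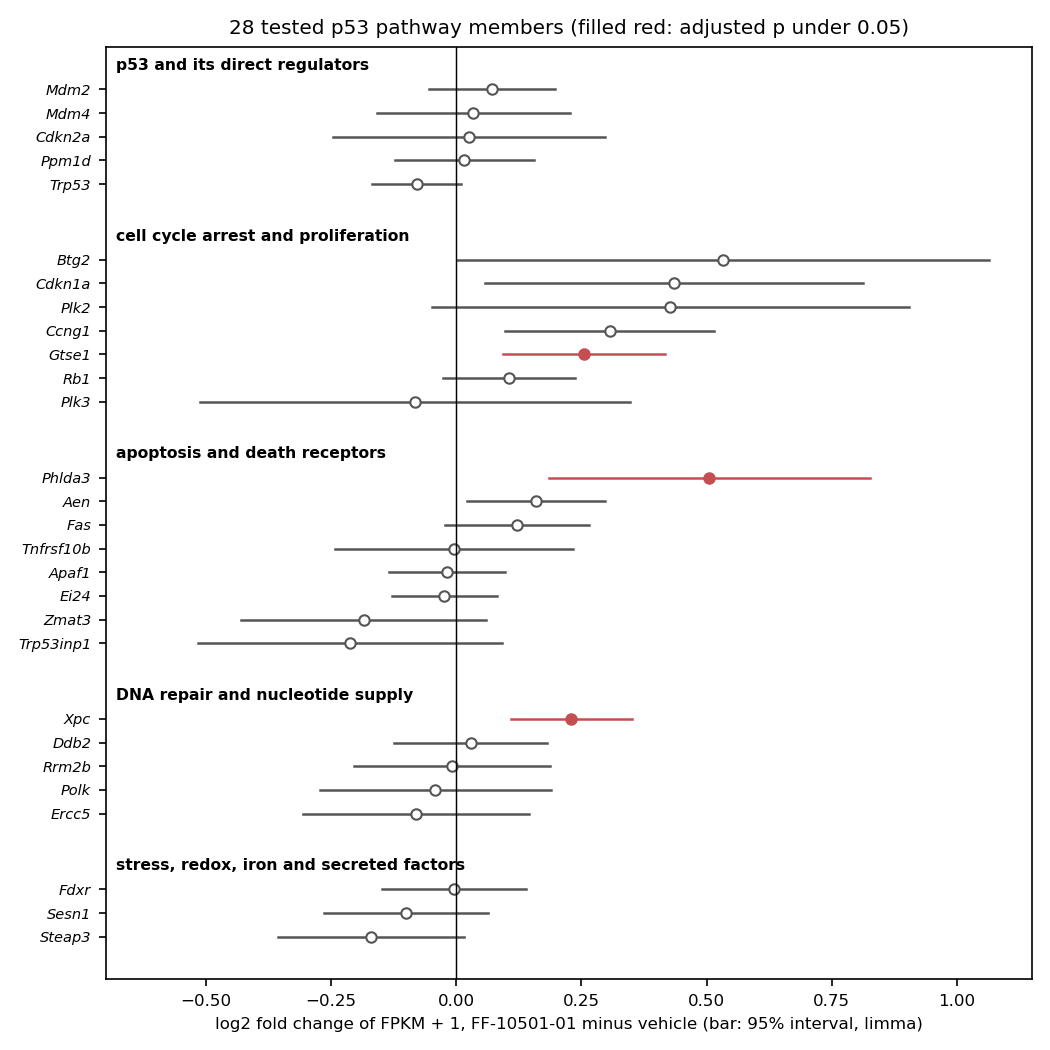
Log2 fold change of FPKM + 1 (horizontal axis, FF-10501-01 minus vehicle, 3 libraries a group) for the 28 tested members by role, with the 95% interval from limma. The 3 filled red points are Gtse1, Phlda3 and Xpc, called higher, and most of the other intervals reach across 0.

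The members also differed widely in level. Per length of transcript, Xpc was the most abundant at a mean of 141 FPKM over the 6 libraries, above 94.5% of the entries tested, followed by Trp53 at 81.9 and Ccng1 at 53.5 FPKM. In all, 11 members were above 20 FPKM and 6 were under 5, and the median member was at 11.27 FPKM against 15.67 for all entries. Phlda3 and Zmat3, at 1.27 and 1.25 FPKM, sat just above the minimum mean of 1 FPKM. Untested were Gdf15, which encodes a secreted stress factor and ranged from 0.569523 to 0.844033 FPKM, and Ak1, an adenylate kinase, from 0.169992 to 0.569002 FPKM. Eda2r, a TNF receptor family member, and Perp, a membrane protein of epithelial junctions and apoptosis, were listed at 0 in all 6 libraries.

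**Figure D2:**
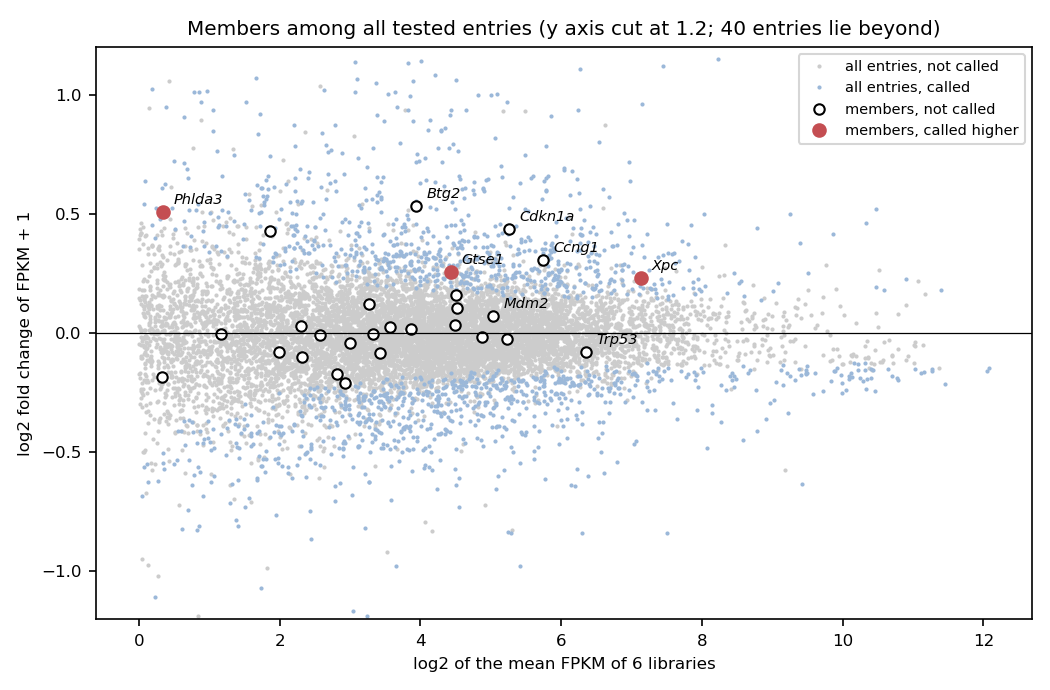
Log2 fold change of FPKM + 1 (vertical axis) against log2 of the mean FPKM of the 6 libraries (horizontal axis) for the 11004 entries tested, with the 28 members as circles. Members lie across the abundance range, and Phlda3, Gtse1 and Xpc, called higher, stand at the low, middle and high end of it.

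The first group was p53 and its direct regulators, of which 0 of 5 were called, with a median log2 fold change of 0.026. Of all entries, 7.43% were called higher and 7.46% lower. Trp53 (chr11:69580359-69591873, plus strand, GRCm38) was at 84.1, 85.0 and 83.5 FPKM in vehicle and at 77.8, 79.2 and 81.9 FPKM in FF-10501-01-treated cells. Its treated libraries were all below the vehicle libraries, by a log2 fold change of -0.08 ± 0.04 (SE, n = 3 per group), and the change did not pass (limma adjusted p = 0.196, 95% interval -0.17 to 0.01). The interval thus holds no rise of the Trp53 mRNA beyond 0.01 on the log2 scale.

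Mdm2 (chr10:117688875-117710758, minus strand), the ubiquitin ligase gene that p53 itself activates, was at 33.7, 32.4 and 29.7 FPKM in vehicle and at 33.7, 32.9 and 34.2 FPKM in treated cells. The groups overlapped, and the log2 fold change was 0.07 ± 0.05 (limma adjusted p = 0.392, 95% interval -0.05 to 0.20). Mdm4, its relative, was at 22.2 ± 1.96 and 22.8 ± 2.25 FPKM (SD, n = 3). Ppm1d, a phosphatase that turns the damage response off, was at 14.5 ± 0.452 and 14.7 ± 0.965 FPKM. Cdkn2a, whose single entry covers both the CDK inhibitor p16 and the MDM2 inhibitor p19Arf, was at 11.7 ± 0.641 and 12.0 ± 2.32 FPKM. All 3 had group means that differed by less than an SD of the treated libraries.

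**Figure D3:**
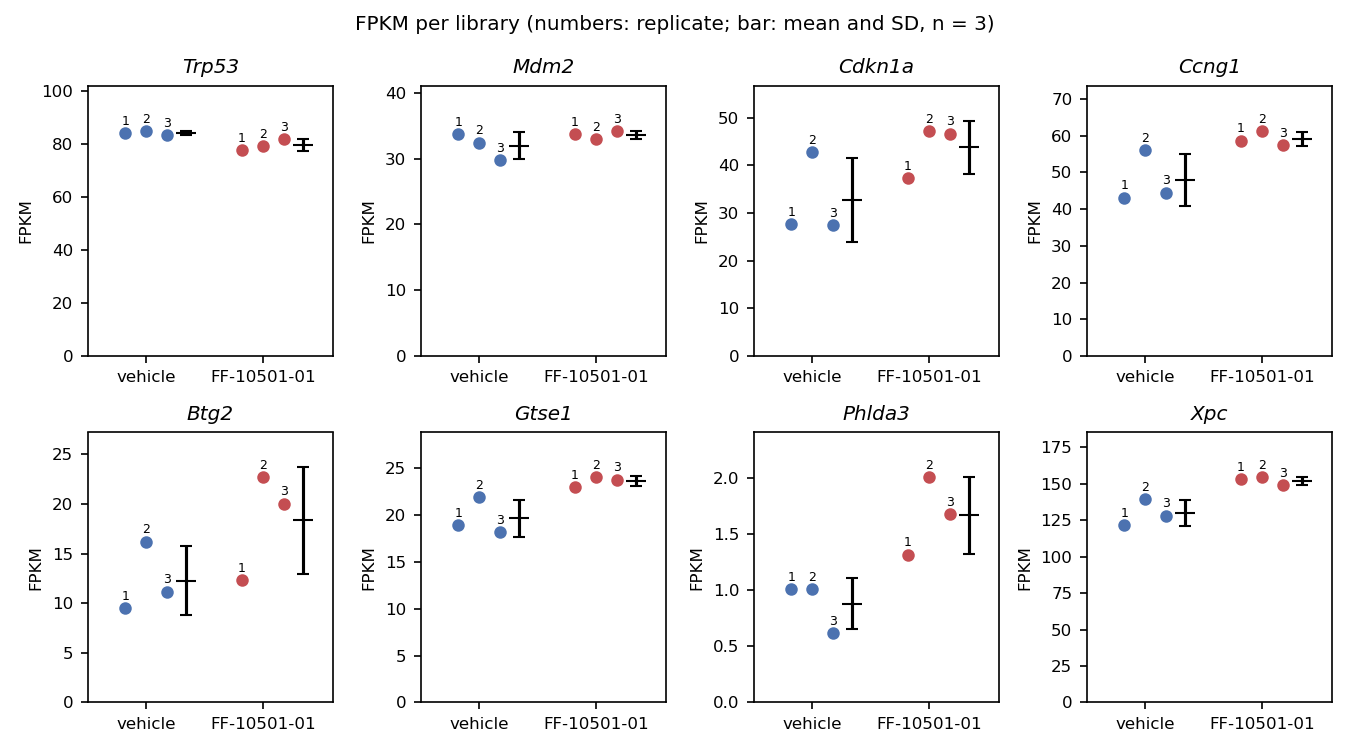
FPKM (vertical axes, from 0) of 8 members in each of the 3 vehicle (blue) and 3 FF-10501-01 (red) libraries, with replicate numbers, and the mean and SD as black bars. Vehicle replicate 2 lies nearest the treated libraries for Cdkn1a, Ccng1, Btg2, Gtse1 and Xpc, and for Cdkn1a it lies above FF-10501-01 replicate 1.

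Genes of arrest and proliferation had the highest median of the 5 groups, 0.306 over 7 members, against -0.013 over all entries. Of the 7, Gtse1 was called higher (14.3%, against 7.43% of all entries). At an unadjusted p under 0.05, 4 were higher (57.1%, against 15.1% of all entries). Cdkn1a (chr17:29090976-29100727, plus strand), which encodes the CDK inhibitor p21, was at 27.7, 42.8 and 27.5 FPKM in vehicle and at 37.4, 47.2 and 46.7 FPKM in treated cells. The groups overlapped because vehicle replicate 2 stood above FF-10501-01 replicate 1. The log2 fold change was 0.43 ± 0.16 (limma adjusted p = 0.107, 95% interval 0.06 to 0.81). Without vehicle replicate 2 it was 0.64 (limma adjusted p = 0.01001), and over the settings that leave out 1 of the 6 libraries each it ran from 0.33 to 0.64, past the threshold in that setting only. The annotation places another gene, AC167363.2, on some exon positions of Cdkn1a, so that their reads may be shared.

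Ccng1 (chr11:40748552-40755311, minus strand), which encodes cyclin G1, an early p53 target that acts with a PP2A phosphatase, was at 43.1, 56.1 and 44.5 FPKM in vehicle and at 58.7, 61.3 and 57.4 FPKM in treated cells. All 3 treated libraries were above all vehicle libraries, again with vehicle replicate 2 closest to them. The log2 fold change of 0.31 ± 0.09 fell just outside the threshold (limma adjusted p = 0.0555), and it passed without vehicle replicate 2 (0.42, limma adjusted p = 0.00627). It passed also after median-of-ratios scaling and rescaling to TPM (limma adjusted p = 0.0481 and 0.0379).

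Gtse1 (chr15:85859745-85876573, plus strand), whose product binds microtubules and escorts p53 out of the nucleus in the G2 phase, was at 18.9, 21.9 and 18.1 FPKM in vehicle and at 22.9, 24.0 and 23.8 FPKM in treated cells. The groups did not overlap, and Gtse1 rose with a log2 fold change of 0.26 ± 0.07 (limma adjusted p = 0.0460). The call did not hold in 5 of the 6 settings that leave out 1 library, where the adjusted p reached 0.132, and was kept without vehicle replicate 2.

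Btg2, an antiproliferative partner of the CCR4-NOT deadenylase, had the highest log2 fold change of the members and the widest spread. It was at 9.47, 16.2 and 11.2 FPKM in vehicle and at 12.3, 22.7 and 20.02 FPKM in treated cells, a log2 fold change of 0.53 ± 0.23 (limma adjusted p = 0.151). Plk2, a kinase of centriole duplication, was at 2.17, 4.27 and 2.53 and at 3.20, 5.40 and 4.34 FPKM (0.43 ± 0.21, limma adjusted p = 0.192). Both were high in replicate 2 of either group and low in vehicle replicate 1, as was Cdkn1a in replicate 2, so that these genes varied together among the libraries of a group. Plk3, a stress-activated kinase, followed the same order of libraries, with its highest value, 13.3 FPKM, in vehicle replicate 2 and its lowest, 7.47, in FF-10501-01 replicate 1. It shares exon positions with Tctex1d4 and had a log2 fold change of -0.08 ± 0.19. Rb1, the pocket protein that CDKs inactivate, was at 22.2 ± 1.49 and 23.9 ± 0.509 FPKM (0.11 ± 0.06, limma adjusted p = 0.237), and shares exon positions with Lpar6 and Rcbtb2.

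The regulatory sequences of these genes are printed because p53 binds a known element, a pair of 10-base consensus motifs with a short spacer. RefSeq promoters on GRCm38.p6, from 250 bases before to 50 bases after each start, were found for 24 of the 32 members, and none was found for Xpc. The p53 motif was searched by its name as the 10-base consensus, which reads the same on both strands, with a spacer of up to 13 bases in a pair. A pair with at most 1 mismatch was present in 4 members, Cdkn1a, Ccng1, Gtse1 and Polk, and in 1.24% of all 27025 genes with a promoter window. A single motif without a mismatch was present in 10 members (41.7% of the 24), against 9.55% of all genes. The 250 bases before the start are given here for Cdkn1a and Ccng1 and the pair alone for Gtse1 and Polk, 5′ to 3′ on the gene's strand. The capitals mark the pair with the fewest mismatches, and a pair with more mismatches, also one that overlaps it, is not marked.
Cdkn1a, chr17:29090729-29090978, plus strand: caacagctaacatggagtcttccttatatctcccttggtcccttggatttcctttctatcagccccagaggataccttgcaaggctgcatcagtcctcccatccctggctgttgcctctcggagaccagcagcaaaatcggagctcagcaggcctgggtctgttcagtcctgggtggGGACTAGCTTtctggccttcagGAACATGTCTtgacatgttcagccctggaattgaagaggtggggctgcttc
Ccng1, chr11:40755287-40755536, minus strand: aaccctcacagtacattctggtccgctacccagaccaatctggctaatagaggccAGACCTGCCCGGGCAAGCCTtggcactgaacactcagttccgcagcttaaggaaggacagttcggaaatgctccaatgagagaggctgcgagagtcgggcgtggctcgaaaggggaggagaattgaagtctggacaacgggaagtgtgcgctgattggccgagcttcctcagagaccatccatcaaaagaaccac
Gtse1, chr15:85859945-85859964, plus strand: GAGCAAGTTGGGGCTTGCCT
Polk, chr13:96519398-96519418, minus strand: GAACTAGCCTcAAACTTATTC

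The pair of Cdkn1a had 0 mismatches with a spacer of 12 bases and ran from base -73 to -42 before its outermost RefSeq start. Those of Ccng1 (-195 to -176), Gtse1 (-1 to 19 around a RefSeq start further downstream) and Polk (-231 to -211 before a RefSeq start inside the gene) had 1 mismatch each. At the outermost RefSeq starts of Gtse1 and Polk the best pair had 4 mismatches and no single motif was without a mismatch. At another RefSeq start of Cdkn1a, further downstream, the best pair had 5 mismatches and again no single motif was without a mismatch. Of these 4 genes, Cdkn1a, Ccng1 and Gtse1 had log2 fold changes of 0.43, 0.31 and 0.26, and Polk had -0.04, and only Gtse1 was called. The other members with a single motif without a mismatch were Aen, Mdm2, Ppm1d, Ei24, Trp53 and Sesn1. Their log2 fold changes were 0.16, 0.07, 0.02, -0.02, -0.08 and -0.10, none of them called. Many members were listed as known p53 targets, so the motif shares do not bear on the treatment. Whether motif and change go together was not tested. A match describes these letters and is not a measurement of p53 binding.

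Of the apoptosis and death receptor genes, 1 of 8 tested was called higher (12.5%, against 7.43% of all entries), and their median log2 fold change was -0.0113. Phlda3 (chr1:135766119-135769136, plus strand), which encodes a pleckstrin homology protein that competes with AKT for membrane lipids, was at 1.01, 1.01 and 0.616 FPKM in vehicle and at 1.32, 2.01 and 1.68 FPKM in treated cells. All treated libraries were above all vehicle libraries, and Phlda3 rose with a log2 fold change of 0.51 ± 0.14 (limma adjusted p = 0.0459). On the FPKM scale the mean went from 0.878 ± 0.227 to 1.67 ± 0.344 (SD, n = 3), and at this low level a pseudocount of 0.1 gave a log2 fold change of 0.86 that missed the threshold (limma adjusted p = 0.0502). Phlda3 did not pass in 4 of the 6 settings that leave out 1 library, nor after quantile normalization (limma adjusted p = 0.0515).

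Aen, an apoptosis-enhancing nuclease, was at 21.3 ± 1.30 and 23.9 ± 1.16 FPKM (log2 fold change 0.16 ± 0.06, limma adjusted p = 0.107), and its groups overlapped. Fas, the death receptor, was at 8.69, 9.24 and 9.74 FPKM in vehicle and at 9.82, 10.5 and 10.01 FPKM in treated cells, with no overlap but a small difference (0.12 ± 0.06, limma adjusted p = 0.212). Zmat3, a zinc finger RNA-binding protein, was the reverse case. It was at 1.44, 1.41 and 1.33 FPKM in vehicle and at 1.27, 0.908 and 1.152 FPKM in treated cells, without overlap (-0.19 ± 0.11, limma adjusted p = 0.265).

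Trp53inp1, a nuclear body and autophagy protein that promotes p53 phosphorylation, was at 9.80, 6.45 and 8.49 FPKM in vehicle and at 7.56, 7.05 and 6.13 FPKM in treated cells. It had the lowest log2 fold change of the members, -0.21 ± 0.13 (limma adjusted p = 0.2996), and vehicle replicate 2 was its lowest vehicle library. Without that library it passed as lower (-0.36, limma adjusted p = 0.0490). Apaf1, the scaffold of the apoptosome, was at 29.7 ± 1.48 and 29.3 ± 0.579 FPKM, and Ei24, an endoplasmic reticulum protein that shares exon positions with Gm26787, was at 37.7 ± 1.30 and 37.0 ± 0.833 FPKM. Tnfrsf10b, the mouse TRAIL receptor, was at 2.25 ± 0.0826 and 2.26 ± 0.358 FPKM. The 95% intervals of these 3 log2 fold changes ran from -0.13 to 0.10, from -0.13 to 0.08 and from -0.24 to 0.23.

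In DNA repair and nucleotide supply 1 of 5 tested members was called higher, Xpc (20%, against 7.43% of all entries). The log2 fold changes of the other 4 lay between -0.08 and 0.03. Xpc (chr6:91489305-91515888, minus strand), whose product recognises distorted DNA to start global nucleotide excision repair, was at 122, 140 and 128 FPKM in vehicle and at 153, 154 and 149 FPKM in treated cells. The groups did not overlap, and Xpc rose with a log2 fold change of 0.23 ± 0.05, from 130 ± 9.003 to 152 ± 2.80 FPKM (SD, n = 3), with the smallest adjusted p of the members (0.0270 in limma). It did not pass in 5 of the 6 settings that leave out 1 library, with adjusted p up to 0.0798, and passed without vehicle replicate 2.

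Ddb2, which finds ultraviolet damage ahead of XPC, was at 4.87 ± 0.141 and 4.98 ± 0.182 FPKM and shares exon positions with Acp2. Polk, a translesion polymerase, was at 8.11 ± 0.371 and 7.90 ± 1.30 FPKM. Ercc5, the nuclease of nucleotide excision repair that cuts on the 3′ side, was at 4.14 ± 0.644 and 3.84 ± 0.109 FPKM. Rrm2b, the p53-inducible ribonucleotide reductase subunit, was at 5.95 ± 0.475 and 5.91 ± 0.586 FPKM and shares exon positions with Gm49085. For each of these 4 the group means were within 1 SD of the more variable group.

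Members with roles in stress, redox and iron were not called in 3 of 3 tested, with a median log2 fold change of -0.1. The shares of all entries called were 7.43% higher and 7.46% lower. Steap3, a metalloreductase of endosomal iron uptake, was at 8.04, 7.01 and 7.46 FPKM in vehicle and at 7.28, 6.29 and 6.12 FPKM in treated cells (-0.17 ± 0.08, limma adjusted p = 0.186). Sesn1, a sestrin that restrains mTORC1, was at 5.21 ± 0.259 and 4.79 ± 0.247 FPKM (-0.10 ± 0.07, limma adjusted p = 0.358). Fdxr, the mitochondrial ferredoxin reductase, was at 10.1 ± 0.170 and 10.1 ± 0.687 FPKM.

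Library by library, the members were uneven among vehicle mice. Vehicle replicate 2 was the highest of its group for 15 of 28 members (53.6%, against 37.6% of all entries tested), and vehicle replicate 3 was the lowest for 14 (50% against 36.1%). Among treated libraries, FF-10501-01 replicate 1 was the lowest for 14 (50% against 33.8%). Without vehicle replicate 2, 6 members were called higher (Cdkn1a, Ccng1, Gtse1, Plk2, Phlda3 and Xpc) and 1 lower, with 8.28% of all entries called higher. Without vehicle replicate 1 or 3, or FF-10501-01 replicate 2 or 3, 0 were called in either direction by limma, with 4 at an unadjusted p under 0.05 in each of these settings. In the same order of settings 2.52%, 3.38%, 3.56% and 1.55% of all entries were called higher, so that a count of 0 among 28 is near the share of all entries. Without FF-10501-01 replicate 1 there were 2, Phlda3 and Btg2, with 5.14% of all entries. No label sets vehicle replicate 2 apart, and the cause of its values was not tested.

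**Figure D4:**
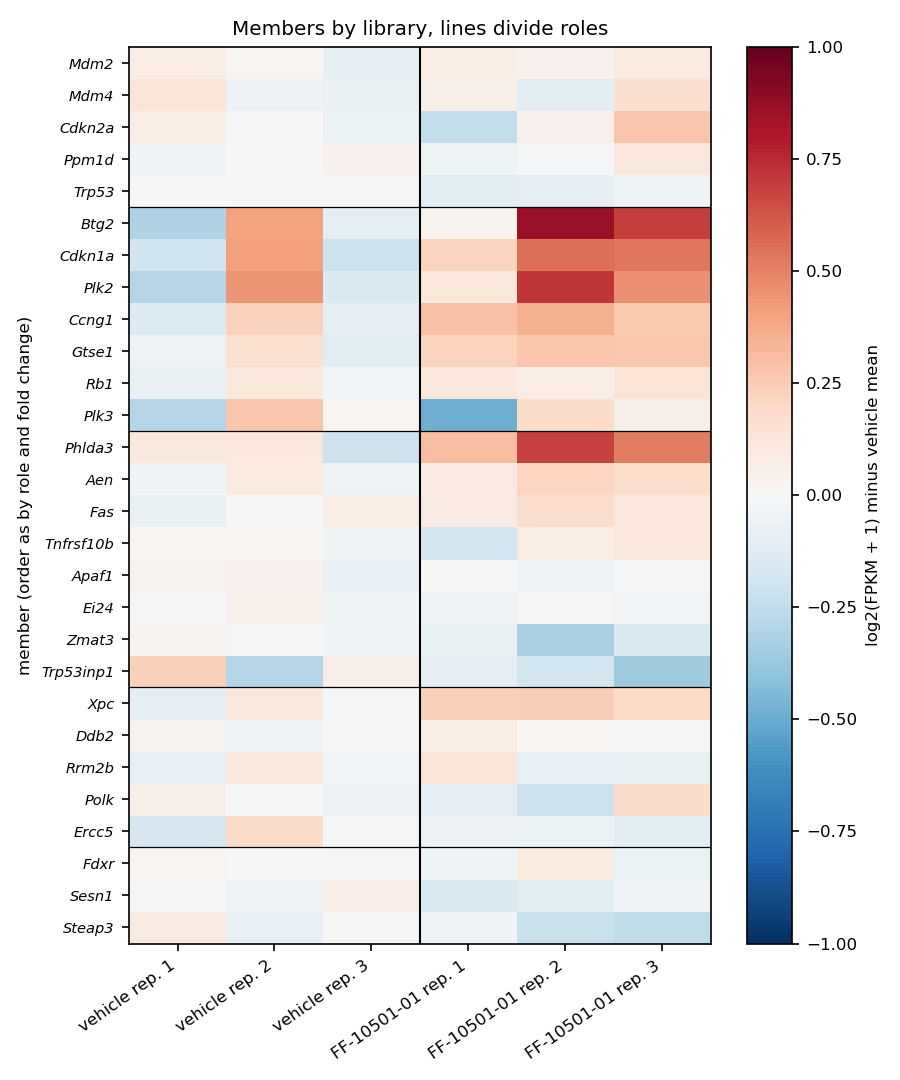
Log2(FPKM + 1) minus the mean of the 3 vehicle libraries (colour, red higher and blue lower) for the 28 tested members (rows, by role and fold change) in the 6 libraries (columns). Btg2, Cdkn1a, Plk2 and Ccng1 are red in vehicle replicate 2 as well as in FF-10501-01 replicates 2 and 3, and Trp53inp1 is blue there.

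Other genes of the pathway were read from 7 lists with 167 tested entries. Of these, 11 were higher (6.59%, against 7.43% of all entries) and 25 lower (15%, against 7.46%). Among the 25 lower, 12 were from the list of nucleolar and ribosomal proteins. With 1 library left out the counts of 11 and 25 became 1 to 13 higher and 3 to 20 lower. Among 33 tested further p53 targets, 3 were higher (9.09%) and 1 lower (3.03%), against 7.43% and 7.46% of all entries. Their median log2 fold change was 0.000808. Pml, the scaffold of nuclear bodies (29.4 ± 1.56 to 36.3 ± 0.789 FPKM), Notch1, a receptor (15.4 ± 0.607 to 18.4 ± 0.305), and Tap1, a peptide transporter of antigen presentation (83.3 ± 3.43 to 95.01 ± 5.16), rose. Thbs1, the secreted thrombospondin, fell from 3.79 ± 0.772 to 1.90 ± 0.495 FPKM (-0.73 ± 0.15, limma adjusted p = 0.0221). Rps27l, the most abundant of the list that was not called, was at 193 ± 12.8 and 192 ± 7.89 FPKM. The death genes Bax and Bbc3 had log2 fold changes of 0.15 and 0.27 (limma adjusted p = 0.321 and 0.418), and Gadd45a, a growth arrest gene, 0.43 (limma adjusted p = 0.164). These 3 were named for their standing as p53 targets after their values were seen.

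Of the 25 tested damage sensors, kinases and mediators, 3 were higher (12%, against 7.43% of all entries) and 4 lower (16%, against 7.46%). H2afx, the histone variant phosphorylated at breaks, rose from 75.3 ± 5.14 to 93.2 ± 6.42 FPKM (0.30 ± 0.07, limma adjusted p = 0.0231). Atr, the kinase of stalled replication forks, fell from 8.19 ± 0.0559 to 6.45 ± 0.209 FPKM (-0.30 ± 0.06, limma adjusted p = 0.0183). Parp1, a sensor of strand breaks, and Topbp1, an activator of ATR, fell by 0.19 and 0.21 on the log2 scale. Xrcc6, the Ku70 end-binding protein and most abundant entry not called, was at 36.6 ± 2.21 and 37.9 ± 1.63 FPKM.

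The p53 modifiers and partners had 2 higher and 2 lower of 18 tested (11.1% each, against 7.43% and 7.46% of all entries). Daxx, a histone chaperone that binds MDM2, and Mdm1, a centriole protein, rose by 0.24 and 0.26 on the log2 scale, and Smyd2, a methyltransferase of p53, and Huwe1, a ubiquitin ligase of p53, fell by 0.31 and 0.26. Setd8, a histone and p53 methyltransferase, was the most abundant not called at 73.5 ± 3.08 and 80.7 ± 1.69 FPKM. Trp63 and Trp73, the relatives of p53, were listed at 0 in all libraries.

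The list that moved to one side was that of nucleolar and ribosomal proteins linked to MDM2 and p53. Of its 17 members 12 were lower and 0 higher (70.6% lower, against 7.46% of all entries), all 17 had treated libraries below all vehicle libraries (against 21.2%), and the median log2 fold change was -0.167. Ncl, nucleolin, fell from 213 ± 6.82 to 173 ± 8.03 FPKM (-0.29 ± 0.05, limma adjusted p = 0.0125). Npm1, nucleophosmin, which holds ARF in the nucleolus, fell from 1103 ± 15.5 to 925 ± 36.0 FPKM (-0.25 ± 0.04, limma adjusted p = 0.0120). Gnl3, the nucleolar GTPase nucleostemin, fell by 0.28 on the log2 scale, and Rps20, a ribosomal protein, by 0.20. Rps15, the most abundant not called, was at 2004 ± 23.4 and 1872 ± 68.6 FPKM. Quantile normalization left 16 of the 17 below 0, and leaving out 1 library left 3 to 14 of them called, with 4 called without a trend in eBayes and 3 without the filter on low values. Genes of ribosomal proteins have near-identical copies in the genome, so the value of a single one is uncertain.

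Nucleotide excision repair and translesion synthesis is the pathway of Xpc and Polk. Of its 26 tested genes, 1 was higher (3.85%, against 7.43% of all entries) and 4 were lower (15.4%, against 7.46%). Polh, a translesion polymerase, rose from 12.2 ± 0.693 to 14.9 ± 0.288 FPKM (0.26 ± 0.06, limma adjusted p = 0.0236), while Rad18, the ligase that modifies PCNA at stalled forks, fell from 21.7 ± 0.897 to 18.04 ± 0.689 FPKM. Usp1, which removes that mark, fell by 0.18 on the log2 scale, and the merged entry of Gtf2h2 and LOC100862307, a TFIIH subunit gene and its neighbour, by 0.28. Pcna itself was at 333 ± 10.8 and 326 ± 11.6 FPKM.

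Downstream of p21, the other CDK inhibitors and RB-E2F genes had 2 higher and 2 lower of 23 tested. Each count is 8.7%, near the 7.43% higher and 7.46% lower of all entries. Ccnd3, cyclin D3, rose from 102 ± 3.87 to 143 ± 13.9 FPKM (0.47 ± 0.07, limma adjusted p = 0.00997), and its partner Cdk4 fell from 201 ± 6.33 to 175 ± 6.80 FPKM. E2f2 rose and E2f3 fell, by 0.26 on the log2 scale for the latter and with a log2 fold change of 0.24 for the former. Cdkn2c, a CDK inhibitor gene in a merged entry with 9630013D21Rik, was at 249.4 ± 6.42 and 259 ± 11.0 FPKM. Of 25 cell cycle genes that p21 is known to lower through the DREAM repressor complex, 0 were called in either direction by limma. The shares of all entries were 7.43% higher and 7.46% lower. At an unadjusted p below 0.05 there were 5 higher (20%, against 15.1% of all entries) and 1 lower (against 17.7%). The median log2 fold change of the 25 genes was 0.0303. Top2a, topoisomerase II alpha and the most abundant of them, was at 136 ± 8.54 and 148 ± 4.17 FPKM.

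**Figure D5:**
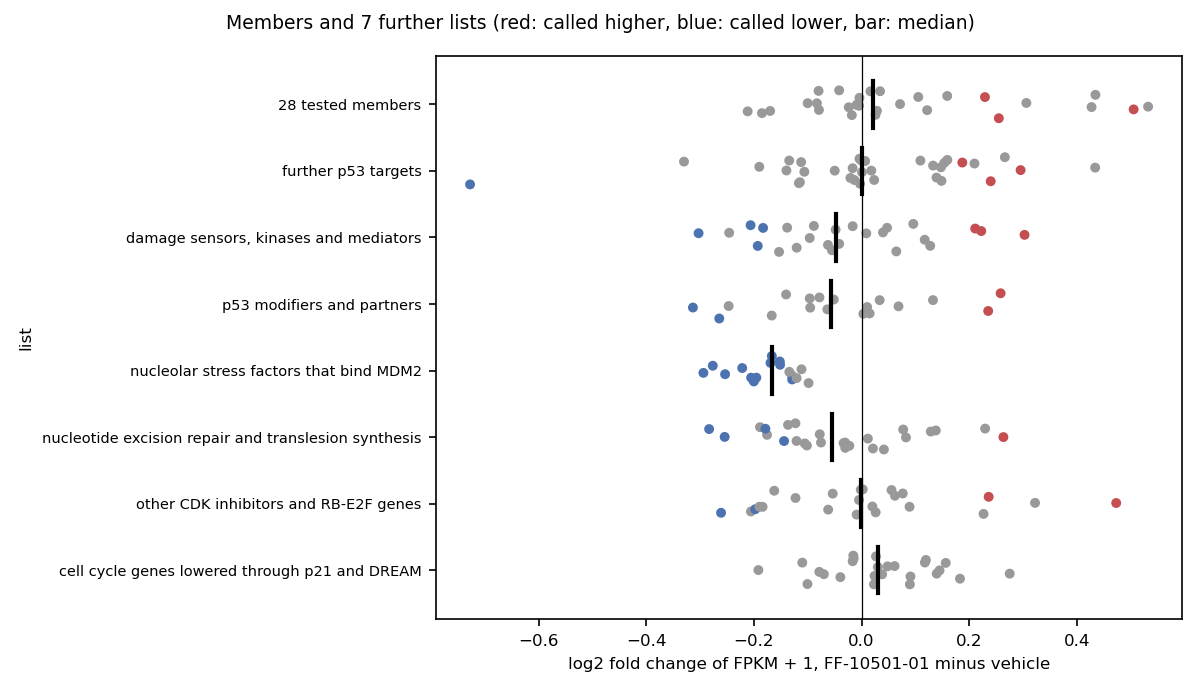
Log2 fold change of FPKM + 1 (horizontal axis) of each tested gene, with 1 row for the 28 tested members and 1 for each of 7 further pathway lists, called genes in red (higher) or blue (lower) and medians as bars. Only the row of nucleolar stress factors, labelled as binding MDM2, lies wholly below 0 (17 of 17), while the DREAM row holds 0 called genes.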

How the data were processed

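Total RNA of sorted GFP+ MLL-AF9 cells from 3 vehicle- and 3 FF-10501-01-treated mice was sequenced as paired ends from strand-specific libraries. The labels give more than 1 RNA input. The deposited FPKM are the authors' values from Cufflinks 2.2.1, after trimming by cutadapt 1.8.1 and alignment to GRCm38 in TopHat2 2.1.1; whether strand was used is not given in the sources used here. Without counts, the authors' test (Cuffdiff) could not be run.

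FPKM were analysed as log2(FPKM + 1) with limma 3.58.1 in R 4.3.3 over the 11004 entries with a mean of at least 1 FPKM (eBayes with a trend, 2-sided, Benjamini-Hochberg over all entries), after the script was tested on simulated data. Columns of the table not used numbered 0. Replicate numbers follow the column order within a group and do not identify a mouse. The p-values set the group difference against the spread between libraries of a group, which eBayes moderates over all entries. A symbol was matched to a table name split at commas, and the most abundant entry was taken; 394 entries are merged genes. Positions come from a GENCODE annotation of GRCm38. The members and lists were chosen with earlier results of these data known. Full values are given for called members and Trp53, Cdkn1a and Mdm2, values or ranges for the other members, and from each further list at most 4 called entries, by p, and the most abundant uncalled one; entries outside this rule are named as such. Tried as alternatives were no filter, a pseudocount of 0.1, a minimum of 5 FPKM, median-of-ratios, TPM and quantile scaling, no trend, the replicate number as a block, merged entries left out, and each library left out.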

Additional observations from a re-analysis of the deposited data

How the results depend on the processing

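Members called higher numbered 3 as reported, 0 without a filter on low values and 1 without a trend in eBayes. In the same order of settings 7.43%, 1.95% and 5.33% of all entries were called higher, with 28, 30 and 28 members tested. The 0 came with 5 members higher at an unadjusted p under 0.05 in limma. Without a filter 337 entries were called higher and 244 lower, and the further lists had 4 higher and 7 lower; without a trend 512 entries were lower, and 11 of the lists. Leaving out 1 library gave 0 to 6 members higher and 0 to 1 lower, 171 to 913 entries higher and 95 to 835 lower, and 1 to 13 list entries higher and 3 to 20 lower. The replicate numbers did not pair the libraries: the deviations of same-numbered libraries correlated at -0.011, -0.0743 and -0.0357. With the replicate block, 4 members (Ccng1, Btg2, Plk2 and Xpc) and 14 list entries (lower) were called. Of all entries, 5.91% were higher in that setting. In the block Gtse1 and Phlda3 had limma adjusted p = 0.0543 and 0.0669.

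Log2 fold changes near 0 changed sign, none of them called before or after. For Tnfrsf10b, Rrm2b and Fdxr they were 0.0066, 0.0045 and 0.011 after median-of-ratios scaling, 0.0075, 0.0065 and 0.013 as TPM, and 0.025, 0.015 and 0.0047 after quantile normalization. With 1 library left out, Mdm4 ran from -0.028 to 0.11, Ppm1d from -0.033 to 0.050, Cdkn2a from -0.100 to 0.16, Plk3 from -0.23 to 0.12, Tnfrsf10b from -0.058 to 0.090, Apaf1 from -0.059 to 0.0038, Ei24 from -0.044 to 0.0031, Polk from -0.15 to 0.046, Ercc5 from -0.16 to 0.014, Rrm2b from -0.078 to 0.045 and Fdxr from -0.054 to 0.028. The causes were not tested. Depth is not known in reads, which limits what can be said of members near 1 FPKM.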
